A study of Mus musculus with 6 samples.

Results

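The genes described here carry the signal of insulin from its receptor to the kinase AKT and to the proteins that AKT phosphorylates. They were 9 genes, taken by gene name from the deposited expression tables, of 56884 gene IDs in all: *Insr*, *Irs1*, *Irs2*, *Pik3r1*, *Pik3ca*, *Akt1*, *Akt2*, *Tbc1d4* and *Pde3b*. All 9 were among the 15426 genes that could be tested. RNA was sequenced from mouse cells derived from the stromal vascular fraction (SVF) of subcutaneous white adipose tissue, the fraction that holds adipocyte precursors. The cells were a line that stably overexpressed a mutant of PPARγ2, the nuclear receptor that drives adipocyte differentiation, after retroviral transfer and puromycin selection. In PPARγ2 K382Q-overexpressing cells the lysine was replaced by glutamine, which mimics acetylated lysine, and in PPARγ2 K382R-overexpressing cells by arginine, which mimics the deacetylated form. There were 3 libraries of each mutant, labelled as biological replicates, all from day 2 of beige adipocyte differentiation. Both groups were in the same medium, which contained 5 µg/mL insulin, 500 µM isobutylmethylxanthine (an inhibitor of phosphodiesterases), 125 µM indomethacin, 2 µg/mL dexamethasone, 1 nM T3 and 0.5 µM rosiglitazone, an agonist of PPARγ. Cells without a mutant were not analysed here, so each comparison is between the 2 mutants.

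Insulin binds its receptor tyrosine kinase, which phosphorylates the IRS adaptor proteins. These recruit the lipid kinase PI3K, a dimer of a regulatory and a catalytic subunit, whose product brings AKT to the plasma membrane, where it is activated by upstream kinases. In adipocytes, AKT phosphorylates TBC1D4 (AS160), which then releases vesicles with the glucose transporter GLUT4 to the cell surface, and PDE3B, which hydrolyses cyclic AMP and by this restrains lipolysis. AKT also keeps FoxO transcription factors out of the nucleus. RNA levels do not show how far any of these proteins was phosphorylated.

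The promoter windows of the adaptors *Irs1* and *Irs2* and of *Akt1* are shown for 2 reasons. These genes passed an adjusted p-value of 0.05 as lower in PPARγ2 K382Q-overexpressing cells under each scaling tried. A window of each also held a match to a searched motif. *Pik3ca* had a match and was lower, but did not pass under each scaling, and its window is not shown. *Pik3r1* was also lower and passed under each scaling, but its windows held no match to any searched motif and are not shown. Each window is the 250 bases before a RefSeq transcription start, written 5′ to 3′ on the gene's own strand, and the coordinates are of GRCm38.p6, an older build than the GRCm39 of the expression tables. Capitals mark CACGTG, the palindromic E-box that also contains the core ACGTG of the hypoxia response element, in *Irs1* (115 to 110 bases upstream) and *Irs2* (44 to 39 bases upstream), and TGTTTAC, a FoxO motif, in 1 of the 2 windows of *Akt1* (161 to 155 bases upstream).
*Irs1*, chr1:82291440-82291689, minus strand: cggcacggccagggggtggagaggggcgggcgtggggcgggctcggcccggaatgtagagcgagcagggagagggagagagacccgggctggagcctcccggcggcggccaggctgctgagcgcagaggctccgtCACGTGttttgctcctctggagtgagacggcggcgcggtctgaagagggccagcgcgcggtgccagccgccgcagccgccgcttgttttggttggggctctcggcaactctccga
*Irs2*, chr8:11008930-11009179, minus strand: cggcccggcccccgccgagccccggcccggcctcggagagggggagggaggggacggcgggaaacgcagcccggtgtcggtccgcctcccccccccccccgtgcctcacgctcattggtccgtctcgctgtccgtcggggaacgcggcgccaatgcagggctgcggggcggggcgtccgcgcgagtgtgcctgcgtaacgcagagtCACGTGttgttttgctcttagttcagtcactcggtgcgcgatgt
*Akt1*, chr12:112674885-112675134, minus strand: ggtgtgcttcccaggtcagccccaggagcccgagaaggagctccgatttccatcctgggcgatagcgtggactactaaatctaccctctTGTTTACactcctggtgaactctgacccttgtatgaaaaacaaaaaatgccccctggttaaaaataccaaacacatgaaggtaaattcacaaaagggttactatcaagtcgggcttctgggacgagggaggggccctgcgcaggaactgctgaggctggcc
RefSeq windows were found for 7 of the 9 genes (12 windows), and not for *Insr* and *Pde3b*. On either strand, TGTTTAC was in 1 of the 12 windows and in 3.17% of 32851 windows of the same length. ACGTG was in 4 windows, those of *Irs1*, *Irs2*, *Pik3ca* and *Akt2*, and in 16.6% of all windows. Its extension CACGTG, which was searched after the ACGTG matches had been seen, was in the windows of *Irs1* and *Irs2* and in 6.02% of all windows. The cyclic AMP response element TGACGTCA (1.55% of all windows) and the PPARγ response element, a repeat of AGGTCA with 1 base of any kind between the copies (0.0335% of all windows), were in none of the 12. A match describes these letters only and is not evidence of binding. The windows of *Irs1* and *Irs2* were rich in G and C (72.4% and 72.8%, against a median of 52.4% over all windows).

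The authors deposited coverage, FPKM and TPM (transcript abundance relative to a fixed library total) of each gene. The aligned length was between 5.95 and 7.50 Gb per library in PPARγ2 K382Q-overexpressing cells and between 6.53 and 8.15 Gb in PPARγ2 K382R-overexpressing cells, and the first principal component, with 61.3% of the variance, separated the mutants. *Pparg*, which includes reads from the vector, was at 1104 to 1333 TPM in PPARγ2 K382Q- and 1590 to 1632 TPM in PPARγ2 K382R-overexpressing cells (log2 fold change -0.43, SE 0.0638, limma adjusted p = 0.000977). The cells had the white and beige marker *Hoxc9* and all 9 adipocyte markers, of which 3 were higher with the K382Q mutant (*Fabp4*, *Cd36* and *Slc2a4*) and 4 lower (*Adipoq*, *Cebpa*, *Lpl* and *Pparg*), *Adipoq* at a mean of 148 against 360 TPM, and the brown lineage markers *Zic1* and *Meox1* were listed at 0. Markers of adipocyte type moved with the mutants: the beige or brown markers *Elovl3* and *Ppargc1a* were higher in PPARγ2 K382Q-overexpressing cells, *Ucp1* and *Cidea* reached the filter on low values only through their K382Q libraries and *Prdm16* and *Dio2* did not reach it (summed TPM 283 to 293 against 132 to 133, nearly all of it *Elovl3*, at a mean of 279 against 130), and all 5 tested of 8 preadipocyte or fibroblast markers were lower (508 to 552 against 866 to 903, most of it *Ly6a*, *Dpp4* at 0), where 11.1% of all genes tested were higher and 36.9% lower. Summed leukocyte markers were at 11.3 to 12.7 against 12.8 to 15.8 TPM, nearly all of it *Cd14* and *Cd68*, with *Adgre1* and *Cd3e* at 0. The part of these marker differences, and of the *Pparg* difference, in the results for insulin pathway genes was not tested. In RNA of whole cultures, fewer cells of a type and less RNA per cell cannot be told apart.

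Of the 9 genes, 6 were lower and 1 was higher in PPARγ2 K382Q-overexpressing cells at an adjusted p-value under 0.05 (limma on log2(TPM + 0.5) with Benjamini-Hochberg adjustment over all genes tested), and *Akt2* and *Tbc1d4* did not pass. The comparison as a whole called 48.1% of the genes tested, 36.9% lower and 11.1% higher. The largest decreases were those of *Irs1* and *Akt1*, and the increase was that of *Pde3b*. None of the 9 was a DEG, a gene that also changed by more than 2-fold, against 3.88% of all genes tested. For 8 of the 9 genes, *Akt2* being the exception, the ranges of the mutants lay apart, which held for 57.0% of all genes tested. The median log2 fold change was -0.30 for the 9 genes and -0.14 for all genes tested. This shift of all genes was 0.0039 after median-ratio scaling of the TPM, which sets changes relative to the median gene. With that scaling, 4 genes were lower (*Irs1*, *Irs2*, *Pik3r1* and *Akt1*), 2 were higher (*Tbc1d4* and *Pde3b*) and 3 did not pass, where 40.3% of all genes were called (20.4% lower and 19.9% higher) and 3.79% were DEGs, and the median of the 9 genes was -0.15. On coverage per Gb of aligned reads, which called 43.1% of all genes, 7 of the 9 passed, *Insr* and *Akt2* being the exceptions.

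**Figure D1:**
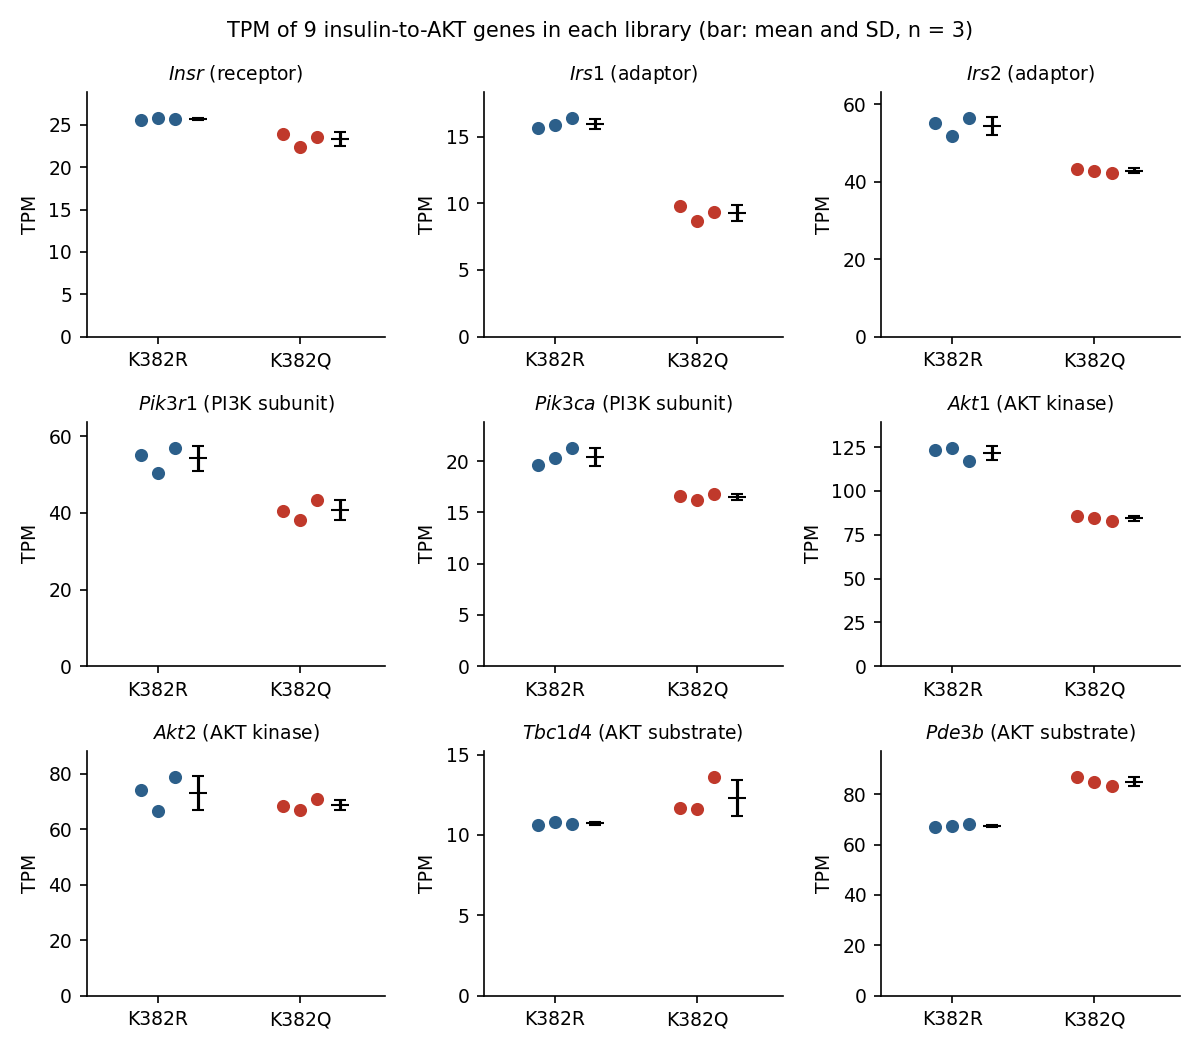
TPM (vertical axes, each from 0) of the 9 genes in each library of PPARγ2 K382R- (blue) and PPARγ2 K382Q-overexpressing cells (red), with the mean and SD of 3 replicates as black bars. *Irs1* and *Akt1* are lower and *Pde3b* higher in every K382Q library than in every K382R library, and the *Akt2* values overlap.

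*Insr* encodes the insulin receptor (ENSMUSG00000005534.11, chr8:3172061-3329617 on the minus strand of GRCm39, the build of all gene positions below). Its level was 24.0, 22.5 and 23.6 TPM in PPARγ2 K382Q-overexpressing cells and 25.6, 25.8 and 25.7 TPM in PPARγ2 K382R-overexpressing cells. The K382Q libraries were all below the K382R libraries, which lay close together. The log2 fold change of -0.14 (SE 0.0449, limma adjusted p = 0.0363) was that of the median gene. Relative to the median gene it was 0.012 (adjusted p = 0.843), and the call was also lost when any of 5 of the 6 libraries was left out (adjusted p = 0.0707 to 0.0950), K382Q replicate 1 being the exception. A change of *Insr* apart from the overall shift was therefore not detected.

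The IRS adaptors, which link the receptor to PI3K, were both lower in PPARγ2 K382Q-overexpressing cells. *Irs1* (ENSMUSG00000055980.3, chr1:82210822-82269137, minus strand) was at 9.80, 8.65 and 9.38 TPM against 15.6, 15.9 and 16.4 TPM in PPARγ2 K382R-overexpressing cells. This was the largest fold difference among the 9 genes, with a 1.69-fold higher level in PPARγ2 K382R-overexpressing cells (log2 fold change -0.75, SE 0.0656, limma adjusted p = 6.47e-05). Of all genes tested, 5.43% had a lower log2 fold change, and the value relative to the median gene was -0.61 (adjusted p = 0.000197). *Irs2* (ENSMUSG00000038894.8, chr8:11034681-11058458, minus strand) was more abundant, at 43.4, 42.8 and 42.1 TPM against 55.0, 51.8 and 56.4 TPM. The groups of *Irs2* were also apart, but by less (log2 fold change -0.34, SE 0.0424, limma adjusted p = 0.000386, and -0.19 with adjusted p = 0.0077 relative to the median gene). The CACGTG letters shown above were in the promoter windows of both adaptors.

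Both PI3K subunit genes were lower on TPM. *Pik3r1*, the gene of the regulatory subunit p85α and its shorter isoforms (ENSMUSG00000041417.16, chr13:101817071-101904725, minus strand), was at 40.6, 38.3 and 43.3 TPM in PPARγ2 K382Q- and 55.1, 50.5 and 57.0 TPM in PPARγ2 K382R-overexpressing cells. It fell by 0.41 on the log2 scale (SE 0.0616, limma adjusted p = 0.00105), and by 0.26 relative to the median gene (adjusted p = 0.0122). *Pik3ca*, the gene of the catalytic subunit p110α (ENSMUSG00000027665.14, chr3:32451820-32522635, plus strand), was at 16.6, 16.2 and 16.8 TPM against 19.6, 20.3 and 21.3 TPM. The K382Q libraries of both genes were below all K382R libraries. The log2 fold change of *Pik3ca* was -0.30 (SE 0.0523, limma adjusted p = 0.00232), but relative to the median gene it was -0.15 and did not pass (adjusted p = 0.0505).

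The AKT kinases differed from each other. *Akt1* (ENSMUSG00000001729.15, chr12:112620255-112641318, minus strand) was at 85.9, 84.3 and 82.8 TPM in PPARγ2 K382Q-overexpressing cells and 123, 125 and 117 TPM in PPARγ2 K382R-overexpressing cells. These groups were well apart, with a 1.44-fold higher level in PPARγ2 K382R-overexpressing cells (log2 fold change -0.52, SE 0.0355, limma adjusted p = 1.88e-05, and -0.37 with adjusted p = 0.000138 relative to the median gene). *Akt2*, the paralog that is known for its part in glucose uptake by adipocytes (ENSMUSG00000004056.16, chr7:27290977-27340251, plus strand), was at 68.5, 66.9 and 70.7 TPM against 74.3, 66.6 and 78.8 TPM. K382R replicate 2 had the lowest *Akt2* value of the 6 libraries, so the groups overlapped. The log2 fold change was -0.09 (95% confidence interval -0.23 to 0.05, limma adjusted p = 0.280), an interval from 0.853-fold to 1.04-fold. Without K382R replicate 2 the value was -0.15 and passed (adjusted p = 0.0363), and relative to the median gene it was 0.064 (adjusted p = 0.442).

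The 2 AKT substrates had the highest log2 fold changes of the 9 genes. *Tbc1d4* (ENSMUSG00000033083.17, chr14:101679796-101846627, minus strand) was at 11.7, 11.6 and 13.6 TPM in PPARγ2 K382Q- and 10.6, 10.8 and 10.7 TPM in PPARγ2 K382R-overexpressing cells. K382Q replicate 3 was the highest, and the other K382Q libraries were just above the K382R range. The log2 fold change of 0.19 (SE 0.0754) did not pass on TPM (limma adjusted p = 0.0766), but relative to the median gene it was 0.33 and did (adjusted p = 0.0107), and without K382Q replicate 3 it was 0.11 on TPM (adjusted p = 0.221). *Pde3b* (ENSMUSG00000030671.10, chr7:114014516-114138486, plus strand) was at 86.7, 84.8 and 83.4 TPM against 67.0, 67.2 and 68.0 TPM. It rose 1.26-fold in PPARγ2 K382Q-overexpressing cells with narrow groups (log2 fold change 0.33, SE 0.0314, limma adjusted p = 9.85e-05, and 0.48 with adjusted p = 1.56e-05 relative to the median gene), and 90.2% of all genes tested had a lower log2 fold change. Both groups were in medium with isobutylmethylxanthine, which inhibits phosphodiesterases.

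**Figure D2:**
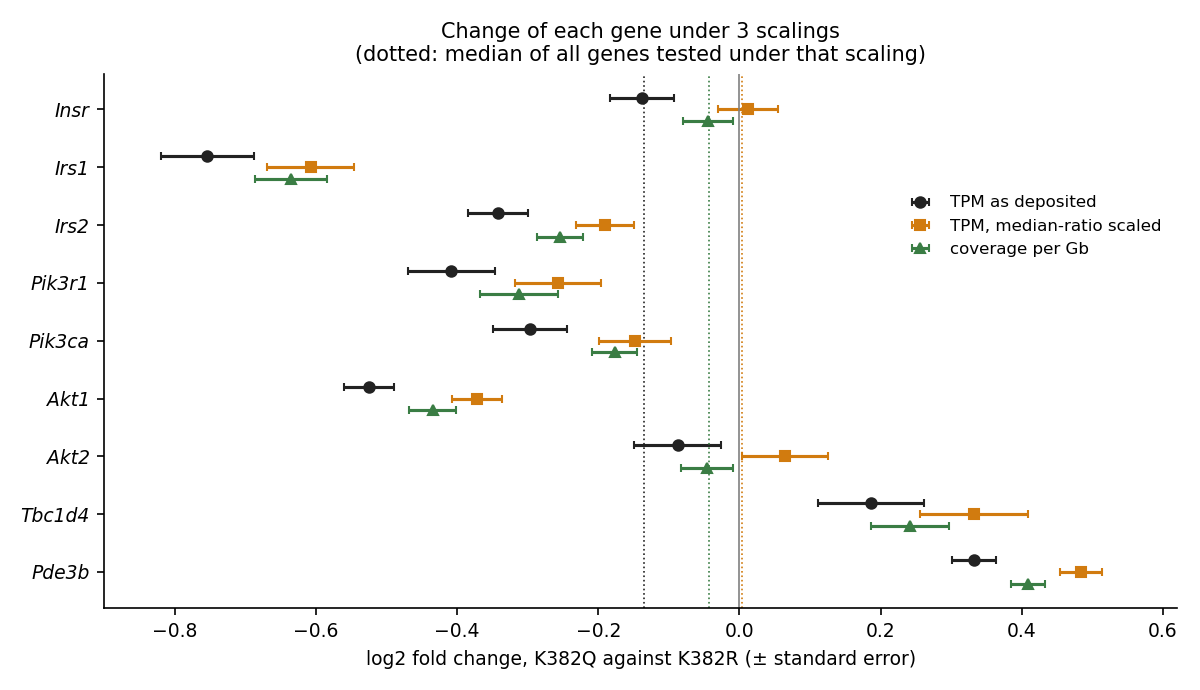
Log2 fold change of each gene (horizontal axis, PPARγ2 K382Q- against K382R-overexpressing cells, with standard error) on TPM as deposited (black circles), on TPM after median-ratio scaling (orange squares) and on coverage per Gb of aligned reads (green triangles). Dotted lines are the medians of all genes tested at -0.14, 0.0039 and -0.04, and *Insr* and *Akt2* change sign between scalings while *Irs1*, *Irs2*, *Pik3r1*, *Pik3ca* and *Akt1* stay below 0 and *Tbc1d4* and *Pde3b* above it.

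The share of a gene in the summed TPM of its family does not depend on how a library is scaled, but its level can depend on the unit. *Irs1* made up 17.8% ± 0.882 (SD, n = 3) of *Irs1* and *Irs2* in PPARγ2 K382Q-overexpressing cells and 22.7% ± 0.687 in PPARγ2 K382R-overexpressing cells. *Tbc1d4* made up 36.5% ± 2.95 of *Tbc1d4* and its paralog *Tbc1d1* in PPARγ2 K382Q-overexpressing cells and 26.5% ± 0.910 in PPARγ2 K382R-overexpressing cells, the widest difference of the shares at 9.94 percentage points. In both families the libraries of the mutants did not overlap. *Insr* was 92.2% ± 0.626 against 90.8% ± 0.481 of *Insr* and *Igf1r*, also without overlap. The shares of *Pik3r1* among the regulatory genes *Pik3r1*, *Pik3r2* and *Pik3r3* (43.7% ± 1.74 against 45.6% ± 1.03) and of *Pik3ca* among the catalytic genes *Pik3ca*, *Pik3cb* and *Pik3cd* (68.2% ± 1.23 against 70.5% ± 1.68) overlapped. *Pde3b* was nearly the whole of *Pde3a* and *Pde3b* in both groups (99.7% ± 0.0187 against 99.9% ± 0.0891). On coverage, the share of *Tbc1d4* was 80.1% ± 1.40 against 71.7% ± 0.920, so that *Tbc1d4* was the minor paralog in TPM and the major paralog in coverage, with a difference in the same direction (8.47 percentage points). The share of *Pik3r1* on coverage was 29.4% ± 1.43 against 30.9% ± 1.03, and that of *Pik3ca* was 70.6% ± 1.25 against 73.2% ± 0.583 without overlap (exact permutation p = 0.1, the smallest possible). An exact two-sided permutation test on TPM of 3 against 3 libraries gave p = 0.1 (adjusted over the 7 shares tested, 6 of which are given here, 0.14) for the 4 of these 6 without overlap, the smallest value this design allows, and p = 0.2 for the other two, so no share could pass a threshold of 0.05.

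**Figure D3:**
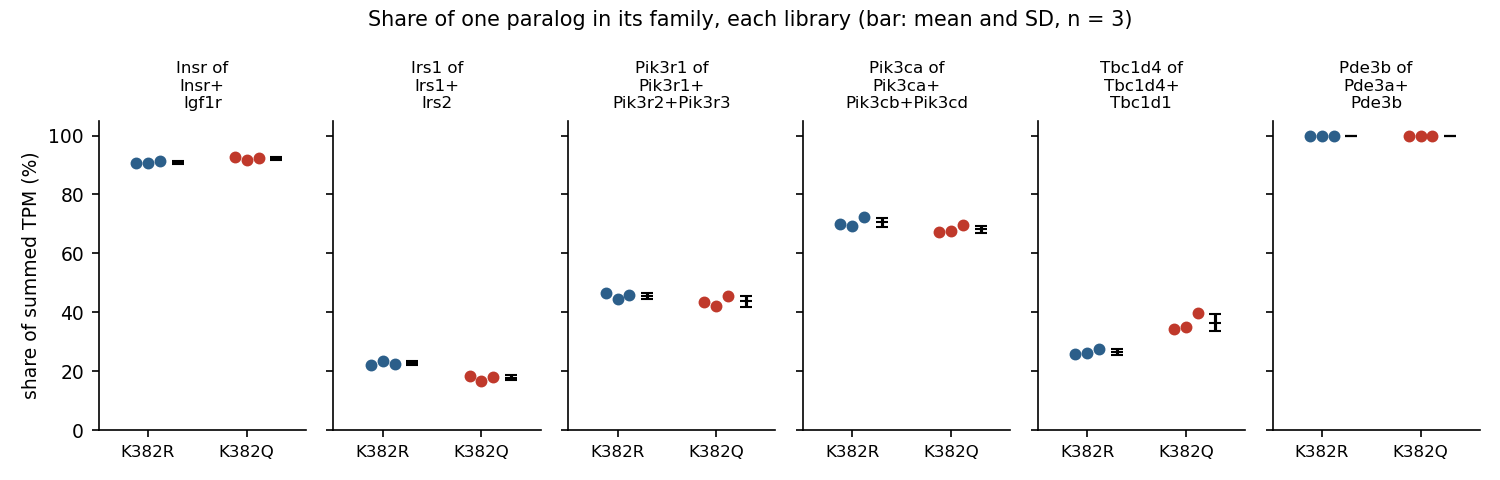
Share of each gene in the summed TPM of its family (vertical axis, percent) in every library of PPARγ2 K382R- (blue) and PPARγ2 K382Q-overexpressing cells (red), with the mean and SD of 3 replicates as black bars. The share of *Irs1* was 17.8% with the K382Q and 22.7% with the K382R mutant and that of *Tbc1d4* 36.5% against 26.5% in TPM (80.1% against 71.7% on coverage), without overlap, and *Pde3b* was above 99% in both groups.

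Levels were compared between genes only on scales per length. In TPM, the order in PPARγ2 K382Q-overexpressing cells ran from *Pde3b* (85.0 ± 1.66) and *Akt1* (84.3 ± 1.54), whose ranges overlapped, over *Akt2* (68.7 ± 1.93), *Irs2* (42.8 ± 0.621) and *Pik3r1* (40.7 ± 2.53), which also overlapped, to *Insr* (23.3 ± 0.793), *Pik3ca* (16.5 ± 0.308), *Tbc1d4* (12.3 ± 1.13) and *Irs1* (9.28 ± 0.581). In PPARγ2 K382R-overexpressing cells *Akt1* (121.6 ± 4.02) stood alone at the top, *Akt2* (73.2 ± 6.18) and *Pde3b* (67.4 ± 0.504) overlapped, as did *Irs2* (54.4 ± 2.36) and *Pik3r1* (54.2 ± 3.32), and *Irs1* (16.0 ± 0.376) was above *Tbc1d4* (10.7 ± 0.108). So the lowest gene in TPM was *Irs1* with the K382Q mutant and *Tbc1d4* with the K382R mutant. Read depth over these genes was between 21.8 (*Tbc1d4*) and 256 (*Akt1*) reads per base.

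The order rested in part on the unit. In coverage per Gb of aligned reads, the mean depth over the exons of a gene, *Akt2* was at 4.58 in PPARγ2 K382Q- and 4.74 in PPARγ2 K382R-overexpressing cells, below *Insr* (6.09 and 6.29), and *Akt1* was at 22.5 and 30.6. *Akt1* was then 4.91 ± 0.123 times *Akt2* with the K382Q mutant and 6.45 ± 0.444 times with the K382R mutant, where TPM gave 1.23 ± 0.0501 and 1.67 ± 0.194. The ratio of FPKM to coverage per Gb was 1 for *Irs1* and *Irs2*, each with 1 transcript in the GENCODE annotation of GRCm39. It was 6.17 and 5.98 for *Akt2*, which has 82. The ratio did not follow the number of transcripts over all 9 genes. It was 1.54 with both mutants for *Akt1*, which has 48 transcripts, and 2.40 and 2.39 for *Pik3r1*, which has 9. The versions of these genes in that annotation differ from those in the expression tables, so the transcript models behind the deposited values may differ in number. Other places also changed in coverage per Gb. *Pik3ca* was above *Insr* with the K382Q mutant (6.65 against 6.09) and with the K382R mutant (7.58 against 6.29). *Irs2* was above *Pde3b* with the K382R mutant (21.1 against 18.8), and it was apart from *Pik3r1* with both mutants (17.6 against 6.99 and 21.1 against 8.79). *Irs1* and *Tbc1d4* overlapped with the K382Q mutant (3.81 and 3.98), and *Tbc1d4* was the lowest gene with the K382R mutant (3.28). On both scales the ratio of *Akt1* to *Akt2* was lower with the K382Q mutant.

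Other genes of the pathway were taken from a list of 81, of which 69 could be tested. On TPM, 35 were lower and 7 higher in PPARγ2 K382Q-overexpressing cells and 27 did not pass (60.9% called, against 48.1% of all genes), and their median log2 fold change was -0.15. With median-ratio scaling, 18 were lower and 14 higher, where 40.3% of all genes were called (20.4% lower and 19.9% higher), and the median was 0.0015. The only DEG was *Slc2a4*, the gene of GLUT4, at 43.5, 48.4 and 46.7 TPM in PPARγ2 K382Q-overexpressing cells and 21.2, 18.5 and 20.6 TPM in PPARγ2 K382R-overexpressing cells. All K382Q libraries were far above the K382R libraries (log2 fold change 1.18, SE 0.0652, limma adjusted p = 6.93e-06). *Slc2a4* is also on the list of adipocyte markers.

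**Figure D4:**
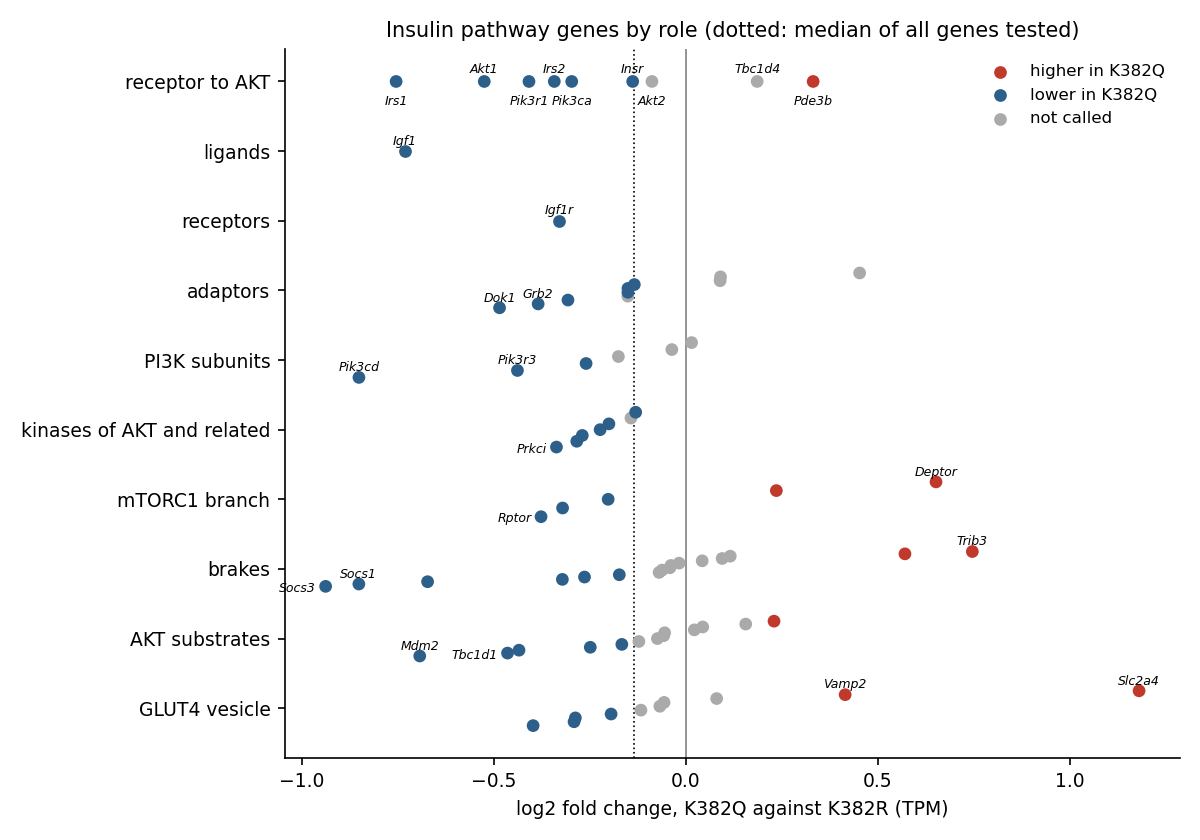
Log2 fold change on TPM (horizontal axis, PPARγ2 K382Q- against K382R-overexpressing cells) of the 9 genes from receptor to AKT and its substrates (top row) and of the 69 tested genes of the wider pathway by role, coloured by the call (red higher, blue lower, grey not called); vertical offsets within a role only separate points. The dotted line is the median of all genes tested at -0.14, and *Slc2a4* is the point farthest right at 1.18.

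Upstream of the adaptors, *Ins1* and *Ins2* were listed at 0 in every library, and insulin came from the medium. *Igf1*, the only ligand tested, was low at 0.931 ± 0.169 against 1.90 ± 0.478 TPM and fell (log2 fold change -0.73, SE 0.193, limma adjusted p = 0.0154), a call that was lost without K382Q replicate 3 (adjusted p = 0.0508) or K382R replicate 3 (0.0539). *Igf1r*, the receptor of IGF1, was at 1.96 ± 0.103 against 2.59 ± 0.148 TPM and passed on TPM (adjusted p = 0.0451) but not relative to the median gene (adjusted p = 0.195), nor when any library was left out (0.0643 to 0.119). Among 10 other adaptors, 6 were lower and none higher on TPM (all genes 36.9% and 11.1%), and 2 were lower and 2 higher with median-ratio scaling (20.4% and 19.9%). Their largest decreases were those of *Dok1*, an adaptor that binds RasGAP (log2 fold change -0.48, limma adjusted p = 0.000167), and *Grb2*, which links receptors to the Ras pathway (-0.38, adjusted p = 0.000599).

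Of 6 other PI3K subunits, 3 were lower and none higher on TPM, a called share of 50% that was near the 48.1% of all genes, and 2 were lower with median-ratio scaling (all genes 20.4%). *Pik3cd*, the gene of the catalytic subunit p110δ, was low at 0.633 ± 0.0949 against 1.55 ± 0.270 TPM (log2 fold change -0.85, SE 0.171, limma adjusted p = 0.00446). The size of this decrease depended on the processing. It was -0.37 on coverage per Gb, -0.53 on FPKM and -1.17, beyond 2-fold, with a pseudocount of 0.1. *Pik3cd* was called under all 18 alternatives. The regulatory *Pik3r3* fell by 0.44 on the log2 scale (adjusted p = 0.000987), close to *Pik3r1*. *Pik3cb*, the gene of p110β, was at 7.08 ± 0.435 against 6.99 ± 0.216 TPM and did not pass (adjusted p = 0.886). Of the 7 tested genes of kinases upstream of or beside AKT, 6 were lower on TPM (all genes 36.9%), and with median-ratio scaling (all genes 20.4%) only *Prkci*, an atypical protein kinase C, was (log2 fold change on TPM -0.34, limma adjusted p = 0.00061).

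In the mTORC1 branch, which AKT activates, all 5 genes passed on TPM and 4 with median-ratio scaling, where 48.1% and 40.3% of all genes did. *Deptor*, an inhibitor of mTOR, rose (27.4 ± 1.27 against 17.2 ± 0.490 TPM, log2 fold change 0.65, limma adjusted p = 4.56e-05), and *Rptor*, the scaffold of mTORC1, fell (24.0 ± 0.349 against 31.3 ± 0.224 TPM, log2 fold change -0.38, adjusted p = 0.000172). The other increase was that of *Eif4ebp1*, a repressor of translation (log2 fold change 0.24, adjusted p = 0.00589), named after its value was seen, and 2 genes were lower and 2 higher with median-ratio scaling.

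Of 16 brakes on insulin signalling, 6 were lower, 2 higher and 8 not called on TPM, a called share of 50% that was near the 48.1% of all genes, and 4 were lower and 4 higher with median-ratio scaling (all genes 20.4% and 19.9%). *Socs3*, a suppressor of cytokine signalling that also targets IRS proteins for degradation, was at 14.6 ± 0.249 against 28.4 ± 0.214 TPM, and its log2 fold change of -0.94 (SE 0.0443, limma adjusted p = 3.76e-06) was the lowest of the 69 genes. *Socs1* fell by 0.85 on the log2 scale (adjusted p = 0.00118) from a low level (1.09 ± 0.0842 against 2.37 ± 0.186 TPM). The 2 brakes called higher, named after their values were seen, were *Trib3*, a pseudokinase that binds AKT, at 203 ± 9.54 against 121 ± 2.77 TPM (log2 fold change 0.75, limma adjusted p = 6.35e-06), and the lipid phosphatase *Inpp4b*, which was under 1 TPM in every library and reached the filter on low values only through the K382Q libraries, so that its call is no support for a change (adjusted p = 0.0442, lost when any library other than K382Q replicate 2 was left out, at 0.0692 to 0.142, and 0.203 on coverage per Gb).

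Of 13 other AKT substrates, 5 were lower, 1 was higher and 7 did not pass on TPM, a called share of 46.2% that was near the 48.1% of all genes, and 4 were lower and 3 higher with median-ratio scaling (all genes 20.4% and 19.9%). *Mdm2*, the ubiquitin ligase of p53, fell from 141 ± 4.56 TPM in PPARγ2 K382R- to 87.4 ± 2.83 TPM in PPARγ2 K382Q-overexpressing cells (log2 fold change -0.69, limma adjusted p = 7e-06). *Tbc1d1*, the paralog of *Tbc1d4*, was at 21.4 ± 0.840 against 29.7 ± 1.42 TPM (log2 fold change -0.46, SE 0.0542, limma adjusted p = 0.000288), opposite in direction to the *Tbc1d4* value. The increase was that of *Ralgapa2*, a subunit of a GTPase activating complex (log2 fold change 0.23, adjusted p = 0.029), named after its value was seen, and its call was lost without K382Q replicate 1 or 3 or K382R replicate 1 or 2 (0.0744 to 0.0889). Of 10 genes of GLUT4 vesicles, 4 were lower and 2 higher on TPM (all genes 36.9% and 11.1%), and 2 were lower and 3 higher with median-ratio scaling (20.4% and 19.9%). Beside *Slc2a4*, the vesicle protein gene *Vamp2* rose (50.2 ± 1.98 against 37.5 ± 0.983 TPM, log2 fold change 0.42, limma adjusted p = 0.000166).

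The genes whose level was most like that of *Irs1* over the 6 libraries, among 10643 genes with a mean of at least 5 TPM, were *Pgrmc1*, *Aldh1a7*, *Supt6*, *Il6st* and *Gtpbp4*, with Pearson r of 0.999 or more on log2(TPM + 0.5). This is a description over 6 libraries that share the 2 groups, and 2700 genes had an r over 0.95.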

How the data were processed

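As the paper and the labels state, the authors made libraries from 3 biological replicates of each mutant, trimmed reads with TrimGalore, mapped them with HISAT2 to GRCm39 and estimated gene abundance with StringTie. The annotation release and whether the kit kept strand are not given in the sources used here. Of the deposited values, coverage is the average number of reads over each base of a gene. FPKM is the authors' estimate of fragments per kilobase of transcript for the size of the library. TPM is the deposited estimate brought to the same total in all libraries, and a rise of some genes lowers the TPM of others. Counts, which the authors used for DESeq2, were not analysed here. Rows of a repeated gene ID (at most 5 per library) were summed.

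The mutants were compared in limma (version 3.58.1, R version 4.3.3) after log2(TPM + 0.5) transformation, with the prior variance following the mean level, and p-values were adjusted by Benjamini-Hochberg over genes that reached 0.5 TPM in 3 or more libraries. The fold change on this scale understates changes of low genes. The highest coverage to FPKM ratio, shared by single-transcript genes, gave the aligned length. Python 3.11.15, pandas 2.3.3, numpy 2.4.6, scipy 1.17.1 and matplotlib 3.10.9 served the other steps. The fit was tested on simulated data with few changed genes and no overall shift. That setting differs from these data, so the test does not measure the error rate of the calls made here. At most 0.0162% of genes had identical TPM in any pair of libraries. Genes that overlap the 9 genes in the tables reached at most 1.90 TPM.

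The 9 genes and all gene lists were chosen with earlier results of these data known. Named were the 9 genes, their paralogs, each DEG and the 2 largest changes of each role of the wider list, the 5 genes most like *Irs1*, check genes and markers, and genes stated as named after their values were seen. Alternatives changed the pseudocount (1 or 0.1), the filter (none, or 1 TPM), the unit (FPKM), the scaling (median-ratio or quantile), the variance trend, the library weights (array weights), the samples (each left out singly, or a replicate block) and the DEG threshold (1.5-fold). Coverage per Gb, with and without median-ratio scaling, was added after the data were seen. Promoters are those of a RefSeq table on GRCm38.p6, used without conversion of coordinates. Results for some genes are not reported here. Single shares were compared by an exact permutation test.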

Additional observations from a re-analysis of the deposited data

How the results depend on the processing

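*Irs1*, *Irs2*, *Pik3r1*, *Akt1* and *Pde3b* kept their direction and their call under all 18 alternatives, with log2 fold changes from -0.79 to -0.57, -0.38 to -0.17, -0.46 to -0.24, -0.55 to -0.37 and 0.32 to 0.48. *Pik3ca* lost its call with median-ratio scaling (limma adjusted p = 0.0505) and quantile normalization (0.0622). The value of *Insr* turned positive with median-ratio scaling (0.0121), quantile normalization (0.0171) and coverage with median-ratio scaling (0.018), as did that of *Akt2* (0.0642, 0.0717 and 0.0158), and *Insr* was called in 7 and *Akt2* in 1 of 18 alternatives. *Tbc1d4* was called in 6 of 18 (0.11 to 0.34). *Pik3cb*, near 0, was at -0.0052 with array weights and between -0.0202 and 0.0616 with 1 library left out. *Igf1* was called in 15 and *Igf1r* in 5 of 18. Log2 fold changes of low genes moved widely, from -0.94 to -0.27 for *Igf1*, -0.39 to -0.07 for *Igf1r* and -1.05 to -0.54 for *Socs1*. The 599 DEGs among all genes became 379 with FPKM, 293 with coverage per Gb, 284 with coverage per Gb and median-ratio scaling and 1864 with a fold change over 1.5, where 1 of the 9 genes (*Irs1*) and 9 of the wider list were DEGs, and a pseudocount of 0.1 gave 889 DEGs among all genes and 3 of that list. The causes of these changes were not tested. Over all genes tested, deviations of same-numbered samples were hardly correlated (-0.0177, 0.0507 and 0.0223), which does not show whether single genes varied with the replicate number. With a replicate block 6987 genes were called (7415 without) and 6 of the 9, without *Insr* (limma adjusted p = 0.0745). Among the other genes named, the call was lost with the block for *Igf1r*, *Inpp4b* and *Ralgapa2*. Leaving out each library in turn gave 6382 to 7057 calls among all genes and 6 to 7 among the 9. All 7 paralog shares kept their direction under every alternative run. Precision rests on 3 replicates per mutant, and no counting error could be given because counts were not analysed here.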
